A study of Mus musculus with 47 samples.

Results

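The clustered histone genes encode the linker histone H1 and the core histones H2A, H2B, H3 and H4 that package newly copied DNA. They were taken as every protein-coding row of the count table whose symbol begins with Hist1h, Hist2h, Hist3h or Hist4, which gave 68 of 38215 genes. Of these, 6 encode H1, 19 H2A, 18 H2B, 12 H3 and 13 H4. On GRCm38, 55 lie in the Hist1 cluster on chromosome 13, between 21715763 and 51203065, and 10 in Hist2 on chromosome 3, between 96219865 and 96279001. A pair (Hist3) lies on chromosome 11, between 58948911 and 58956674, and 1 gene, Hist4h4, on chromosome 6, between 136801553 and 136804431. Hist1h2al, at 51202688 to 51203065 on chromosome 13, lies far from the other Hist1 genes.

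RNA came from mouse cranial neural crest, the migratory population that builds most of the face, dissected by region and collected by fluorescence sorting. The 47 libraries fall into 16 groups of 3, apart from 1 group of 2. Wild-type cells were crest progenitors at embryonic day E8.5, and frontonasal (FNP), maxillary (Mx), mandibular (Md) and second pharyngeal arch (PA2) subpopulations at E10.5 and at E11.5, with 2 libraries for wild-type Mx at E10.5. The mutants were Ezh2cKO, a conditional loss of the Polycomb methyltransferase Ezh2, in all 4 subpopulations at E10.5, HoxA2OE, E10.5 Md cells that overexpress the homeobox gene Hoxa2, and Hoxa2TempMut, a temporal Hoxa2 mutant of E11.5 PA2, set beside a group labelled Control. The labels name no Cre driver, transgene promoter or timing for these alleles, do not say how the Control group differs from wild type, and do not say whether replicates are separate embryos, so each p-value reflects only the spread among these libraries, which may be technical. Ezh2 was lower in every Ezh2cKO library (113 to 157 CPM) than in every wild-type E10.5 library (350 to 405 CPM), and Hoxa2 was at 92.8 to 124 CPM in HoxA2OE against 0.25 to 0.30 CPM in wild-type Md. In Hoxa2TempMut, Hoxa2 was at 176 to 195 CPM against 268 to 269 CPM in Control. CPM are counts scaled to 1e+06 counts of the normalised library total.

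Clustered histone genes work differently from most genes. They carry no introns for the most part, are transcribed in S phase together with DNA replication, and make mRNAs that end in a conserved stem-loop in place of a poly(A) tail. The stem-loop binding protein Slbp holds that loop through processing, export and translation, the coactivator Npat drives transcription of the genes, and the mRNAs are destroyed when S phase ends. Replacement histones such as H3f3b and H2afz are encoded outside the clusters, are made throughout the cell cycle and carry poly(A) tails. Libraries were made from total RNA, so mRNAs without a tail could be counted.

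The stem-loop is the sequence that sets these mRNAs apart, and 6 are shown because the results below turn on their genes. They come from the GENCODE vM21 transcripts, to which 61 of the 68 genes matched by identifier and 7 by symbol. Capitals mark the 15 bases that matched the motif searched for, which leaves out the last base of the stem.
Hist1h1a: ccaacGGCTCTTTTCAGAGC
Hist1h1e: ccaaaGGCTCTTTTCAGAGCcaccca
Hist1h2bb: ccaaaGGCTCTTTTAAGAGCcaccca
Hist1h4d: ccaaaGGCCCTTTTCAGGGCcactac
Hist2h3c1: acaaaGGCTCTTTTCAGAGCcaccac
Hist2h4: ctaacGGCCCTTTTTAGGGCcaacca
A match to the histone 3′ stem-loop motif was found in 47 of the 68 genes (69.1%), against 24 of 21835 other protein-coding genes (0.110%). The most frequent form, GGCTCTTTTCAGAGC, was found in 27 genes of the H1, H2A, H2B and H3 types. Only H4 genes held GGCCCTTTTCAGGGC, in 7 genes, and GGCCCTTTTTAGGGC, in 2 genes. The annotated transcript of Hist1h1a ended with the last base of the match, and so inside the stem-loop, and that of Hist1h2bb 24 bases after the match. Those of Hist1h4d, Hist1h1e, Hist2h3c1 and Hist2h4 ran on for 771, 1154, 1163 and 1258 bases. The annotated transcripts of Hist1h1b and Hist2h2be held no match. A stem-loop past the annotated end could not be found by this search, so the lack of a match does not show that a gene lacks one. Transcripts without a match included short ones, at 312 bases for Hist1h4k, 381 for Hist1h2bl, 393 for Hist1h2ak and 743 for Hist1h1b.

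Promoters of 62 of the 68 genes could be matched by symbol in RefSeq sequence of GRCm38.p6, as windows of 250 bases before to 50 bases after the annotated start. Among them 35 (56.5%) held TATAAA on either strand, against 13.6% of 32851 windows of the same length over all genes. CCAAT on either strand was found in 53 (85.5%) against 37.4% of all windows, and in every H1, H2A, H2B and H3 window but in 3 of 12 H4 windows. The octamer letters TTTGCAT were found in 14 (22.6%) against 4.63%, of which 7 were H2A and 6 were H2B windows. The letters CGCGCC were found in 15 (24.2%) against 19.2%. Overlap of one motif with another was allowed. The windows of 3 genes are shown because their mRNAs were the most abundant per length (Hist1h1b), the most changed in HoxA2OE (Hist1h4d) and the most lowered at E10.5 (Hist2h3c1). Capitals mark TATAAA and CCAAT, with CCAAT on the other strand written ATTGG.
Hist1h1b, chr13:21780576-21780875, minus strand: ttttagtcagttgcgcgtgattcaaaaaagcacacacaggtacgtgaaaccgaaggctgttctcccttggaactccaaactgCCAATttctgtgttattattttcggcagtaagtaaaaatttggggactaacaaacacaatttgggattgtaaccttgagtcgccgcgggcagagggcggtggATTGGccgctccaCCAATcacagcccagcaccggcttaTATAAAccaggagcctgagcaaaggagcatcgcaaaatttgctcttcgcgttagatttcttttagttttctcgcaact
Hist1h4d, chr13:23581318-23581617, plus strand: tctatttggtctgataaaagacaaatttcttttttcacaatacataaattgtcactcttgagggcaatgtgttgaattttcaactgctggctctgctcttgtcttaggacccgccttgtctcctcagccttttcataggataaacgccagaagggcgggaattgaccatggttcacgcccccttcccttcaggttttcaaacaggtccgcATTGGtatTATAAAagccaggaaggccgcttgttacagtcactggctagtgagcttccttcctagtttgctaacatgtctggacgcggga
Hist2h3c1, chr3:96246435-96246734, plus strand: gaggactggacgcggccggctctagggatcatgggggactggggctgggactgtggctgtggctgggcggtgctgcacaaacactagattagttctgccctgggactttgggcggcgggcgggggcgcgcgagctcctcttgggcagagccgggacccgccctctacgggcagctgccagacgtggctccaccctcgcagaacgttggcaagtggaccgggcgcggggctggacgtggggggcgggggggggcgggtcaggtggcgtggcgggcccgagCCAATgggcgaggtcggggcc
The first 2 windows held both motifs, and the window of Hist2h3c1 held CCAAT past the annotated start and no TATAAA.

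Library totals ran from 18820510 to 49808808 counts, and clustered histone genes took 1879 to 13739 counts per library, or 0.00588% to 0.0446% of the total. At least 1 count was found for 61 of the 68 genes. The 7 at 0 in all libraries were Hist1h2ap, Hist1h2ba, Hist1h2bq, Hist1h2br, Hist1h4m, Hist1h4n and Hist2h2aa2. A filter on low counts left 45 genes for testing, namely 6 of 6 H1, 9 of 19 H2A, 14 of 18 H2B, 7 of 12 H3 and 9 of 13 H4 genes. The testis-type genes were near 0, with 18 counts in all for Hist1h2aa, none for Hist1h2ba and a mean of 0.37 CPM for Hist1h1t. A library of E8.5 (replicate 1) and one of HoxA2OE (replicate 1) stood apart from the others of their groups, with chi-square per degree of freedom of 118 to 128 and 316 to 331, where other pairs of replicates had 3.53 to 71.3.

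Histone genes are near copies of each other, which bears on every level below. Of all windows of 50 bases (the read length) in the transcripts, a median of 51.9% per gene also occurred in another gene. The median was 40.1% for the 45 genes tested and 85.8% for the other 23. It was 1.13% for H1, 67.6% for H2A, 44.0% for H2B, 62.0% for H3 and 39.5% for H4 genes. Within H1, Hist1h1a and Hist1h1b shared none of their windows, whereas Hist1h1e shared 32.0%, with Hist1h2be, Gm11398 and Hist1h1d among the genes that held them. Hist1h4d shared 10.2% and Hist2h4 1.01% of its windows, whereas Hist2h3c1 and Hist2h3b shared 100% of theirs. The H2A gene Hist1h2al shared 67.6%, with Gm20632, Gm20633 and Gm20634 among the genes that held them. Levels per length and the share of shared windows were inversely ordered over the 68 genes (Spearman rho -0.552, a description over genes that share sequence). Some of the transcripts searched are longer than the exons counted, at 1138 against 393 bases for Hist1h4d, 1930 against 748 for Hist1h1e and 7425 against 3821 for Hist1h1d, so the shared part of what was counted can differ from these percentages. How reads matching several copies were counted is not given in the sources used here. Rows can also overlap on the genome. Hist3h2a overlaps the row Trim17, and Hist1h2be the row Gm11398, each on the same strand. Reads from sequence that both rows of such a pair cover cannot be told apart.

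**Figure D1:**
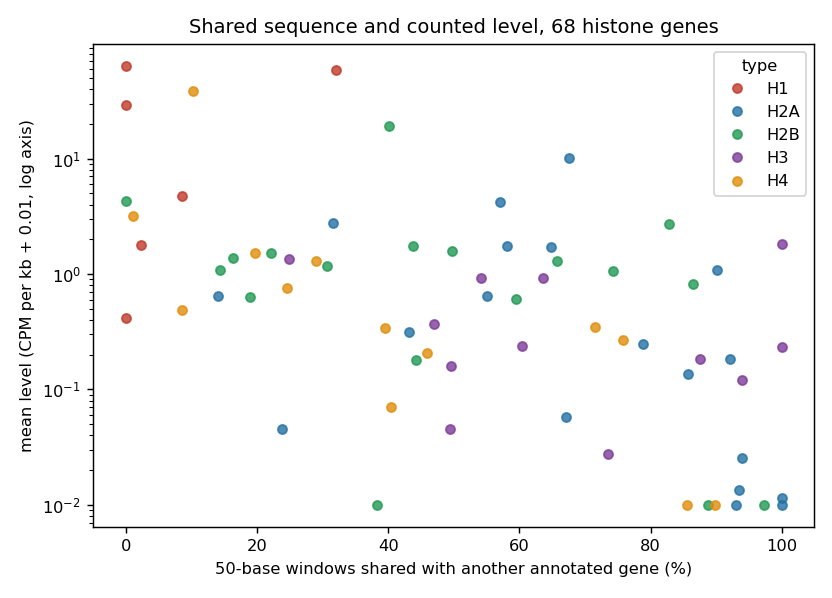
Each point is 1 of the 68 clustered histone genes, with the percentage of its 50-base transcript windows that occur in another gene on the x axis and its mean level over 47 libraries in CPM per kilobase, plus 0.01, on a log y axis. The H1 genes lie at the left, with a median of 1.13% shared, and genes at the right reach lower levels.

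Per kilobase of exon, the H1 genes Hist1h1b and Hist1h1e led. Hist1h1b, on the minus strand of chromosome 13 at 21779883 to 21780625, averaged 63.5 CPM per kb over all libraries, and Hist1h1e at 23621755 to 23622502 averaged 58.9. Hist1h4d at 23581598 to 23581990 followed with 38.2, Hist1h1a at 23763668 to 23764414 with 29.1, Hist1h2bb at 23746734 to 23747202 with 19.0, and Hist1h2al with 10.0 CPM per kb. No other gene reached 5 CPM per kb, and the H1 genes Hist1h1c, Hist1h1d and Hist1h1t ranked 7, 14 and 38 of 68. Among genes outside Hist1, the H2B gene Hist2h2be (chromosome 3, 96221121 to 96223738) had the highest level, 4.27 CPM per kb. By group mean, H1 genes took 62.5% to 64.4% of all clustered histone counts in the 4 wild-type subpopulations at E10.5 and 46.8% at E8.5. The E8.5 libraries ranged from 31.3% (replicate 1) to 54.6%.

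The same 11 wild-type E10.5 libraries serve in the comparisons with E8.5, E11.5 and Ezh2cKO, and those of Md also in that with HoxA2OE, so these comparisons are not independent.

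In wild-type cells 24 of 45 tested clustered histone genes were higher at E10.5 than at E8.5, while 8 were lower, among them the H3 genes Hist2h3c1 and Hist2h3c2. Calls were about as frequent over all genes tested, of which 68.4% were called, 32.1% higher and 36.3% lower. The summed level of all 68 genes was 192.8 CPM in the lowest, 358.5 in the median and 386.4 in the highest of 11 libraries at E10.5, against 118.5, 183.0 and 162.4 CPM in the 3 libraries at E8.5. The groups did not overlap, and the mean was 2.07 times as high at E10.5 (320.5 ± 69.5, SD) as at E8.5 (154.6 ± 32.9). Without the 3 genes of highest level the log2 ratio of the sums was 0.57, against 1.05 with them. Without replicate 1 of E8.5 it was 0.89.

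By type, H1 mRNA was at 204 ± 43.2 CPM at E10.5 and 75.1 ± 33.4 at E8.5, a ratio of 2.71. H2A was at 24.1 ± 4.78 and 10.3 ± 0.967 CPM (ratio 2.34), and H4 at 44.6 ± 13.9 and 14.5 ± 3.14 CPM (ratio 3.07). H2B was at 41.5 ± 8.39 against 28.5 ± 4.58 CPM, and its libraries overlapped. H3 went the other way, at 6.52 ± 1.26 CPM at E10.5 against 26.2 ± 9.34 at E8.5, a ratio of 0.249. Within E8.5, replicate 1 had the lowest H1 sum (37.1 CPM against 99.7 and 88.6) and the highest H3 sum (36.9 CPM against 22 and 19.7).

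**Figure D2:**
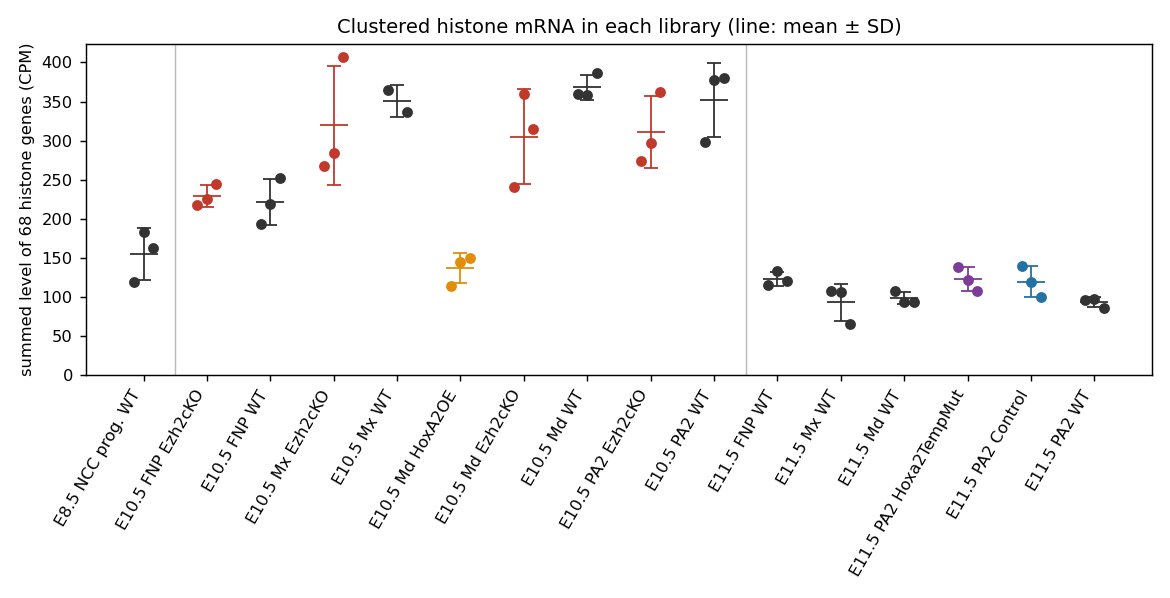
Summed level of the 68 clustered histone genes in CPM (y axis, from 0) in each library, by group (x axis), where points are libraries and lines the mean ± SD. E10.5 wild-type Mx, Md and PA2 lie between 297.6 and 386.4 CPM, HoxA2OE between 114.3 and 149.7, and wild-type E11.5 groups between 65.8 and 132.8.

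In edgeR's quasi-likelihood fit over all genes, 24 of the 45 tested histone genes were called higher at E10.5 and 8 lower, at a Benjamini-Hochberg adjusted p under 0.05. The median log2 fold change was 0.75 over the 45 and -0.03 over all genes. Higher calls comprised 5 of 6 H1, 6 of 9 H2A, 8 of 14 H2B, 2 of 7 H3 and 3 of 9 H4 genes. Lower calls comprised no H1 or H2A, 2 H2B, 3 H3 and 3 H4 genes, so H4 genes were called in both directions.

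Hist1h4d encodes H4 and had 11.3 (lowest), 32.6 (median) and 39.3 CPM (highest) at E10.5, against 3.05, 8.07 and 7.08 CPM at E8.5. Every library at E10.5 was above every one at E8.5 (log2 fold change 2.13 ± 0.24, SE, adjusted p = 5.09e-10). The other main H4 gene, Hist2h4, had 3.80, 11.3 and 14.8 CPM at E10.5, against 2.50, 3.60 and 2.95 CPM at E8.5, with a log2 fold change of 1.84 ± 0.28. Among linker genes, Hist1h1a had 15.3, 39.9 and 43.1 CPM at E10.5, against 6.76, 12.5 and 11.6 CPM at E8.5 (1.73 ± 0.21). Hist1h1e (1.54 ± 0.24) and Hist1h1b (1.48 ± 0.23) likewise did not overlap between stages, at 68.8 ± 13.1 and 79.4 ± 17.8 CPM at E10.5 beside 23.5 ± 12.5 and 28.0 ± 14.9 CPM at E8.5. Hist1h1c, which encodes the linker histone H1.2, was at 9.18 ± 3.07 CPM at E10.5 and 6.78 ± 1.65 at E8.5 and was not called (adjusted p = 0.0644). Hist1h2al rose to 6.52 ± 1.18 CPM at E10.5, against 2.04 ± 0.863 at E8.5 (1.67 ± 0.26). The H2B gene Hist1h2bb was at 12.3 ± 3.61 against 5.19 ± 0.689 CPM (1.22 ± 0.22), with overlap from the FNP library at 3.60 CPM. Outside Hist1, Hist2h2be (0.72 ± 0.16) and the H2A gene Hist3h2a (0.78 ± 0.20) were higher, though libraries of both stages overlapped. Hist3h2a shared 31.5% of its windows with other genes, among them Trim17, which it overlaps.

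The H3 gene Hist2h3c1 (chromosome 3, 96246685 to 96248509) had 1.51, 2.08 and 3.82 CPM at E10.5, against 32.2, 12.9 and 11.7 CPM at E8.5. No libraries overlapped, and the log2 fold change was -3.16 ± 0.31, or -2.54 without the E8.5 library at 32.2 CPM. Its neighbour Hist2h3c2, added after its values were seen, was at 0.790 ± 0.368 CPM at E10.5 against 3.44 ± 1.55 at E8.5 (-2.17 ± 0.31), with 63.5% of its windows in another gene. Hist2h3c1 overlaps the row Gm20634 on the same strand, so reads from the sequence that both rows cover cannot be told apart. The H2B gene Hist1h2be was at 6.71 ± 1.75 against 9.31 ± 2.48 CPM (-0.51 ± 0.17, adjusted p = 0.00768). Without replicate 2 or 3 of E8.5 its adjusted p was 0.183 or 0.0785.

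Several other readings moved with stage. The labels place E8.5 as progenitors, and the marker lists differed between stages. The 10 crest mesenchyme markers summed to 1263 to 1952 CPM at E10.5 and 249.2 to 338.8 at E8.5, with 8 called higher. The 4 neural tube markers were all lower at E10.5, at 20.6 to 31.5 CPM against 270.8 to 357 at E8.5, as were all 6 epithelial markers, at 2.31 to 9.77 CPM against 93.5 to 109. Of 8 erythroid markers 5 fell and 1 rose, with sums of 25.2 to 423 CPM at E10.5 and 613 to 989 at E8.5, and with Hba-a1 at 0 throughout. Mitochondrial ribosomal RNA took 18.9% to 31.9% of counts at E10.5 and 10.52% to 16.9% at E8.5. The part of these in the histone result was not tested. In bulk RNA, fewer cells expressing these genes and less histone mRNA per cell cannot be told apart, here or in the comparisons that follow.

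Among the wild-type subpopulations at E10.5, FNP was the low one. FNP libraries summed to 192.8, 218.8 and 252.0 CPM. Mx libraries summed to 365.3 and 336.6 CPM, those of Md to 359.4, 358.5 and 386.4 CPM, and those of PA2 to 297.6, 377.9 and 380.2 CPM. Mx, Md and PA2 overlapped each other, and FNP overlapped none of them. A test for any difference among the 4 called 11 of 45 genes, or 7 without FNP replicate 1, where 27.0% of all genes were called. They were Hist1h1a, Hist1h1c, Hist1h1d, Hist1h2ak, Hist1h2be, Hist1h2bj, Hist1h2bm, Hist1h4d, Hist2h2be, Hist3h2a and Hist3h2ba. Hist1h1d, a linker gene at 23555032 to 23558852, had 3.52, 4.75 and 5.21 CPM in FNP. Its Mx libraries had 12.1 and 14.3 CPM, Md 13.6, 14.0 and 14.96, and PA2 10.8, 13.7 and 13.3 (adjusted p = 2.5e-05). Hist1h4d had 12.5, 11.3 and 14.0 CPM in FNP. Its Mx libraries had 39.3 and 32.6 CPM, Md 36.5, 31.4 and 36.0, and PA2 24.4, 37.3 and 34.9, so FNP lay below all others for both genes. Hist2h2be had 4.86, 7.72 and 6.48 CPM in FNP and 9.19 to 14.0 CPM in the other libraries. Erythroid markers also differed, with a mean sum of 37.3 CPM in FNP while Mx had 370, Md 247 and PA2 297 CPM, and mitochondrial ribosomal RNA was higher in FNP (27.1% to 31.9%) than in the others (18.9% to 22.7%). Their part in the difference was not tested.

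**Figure D3:**
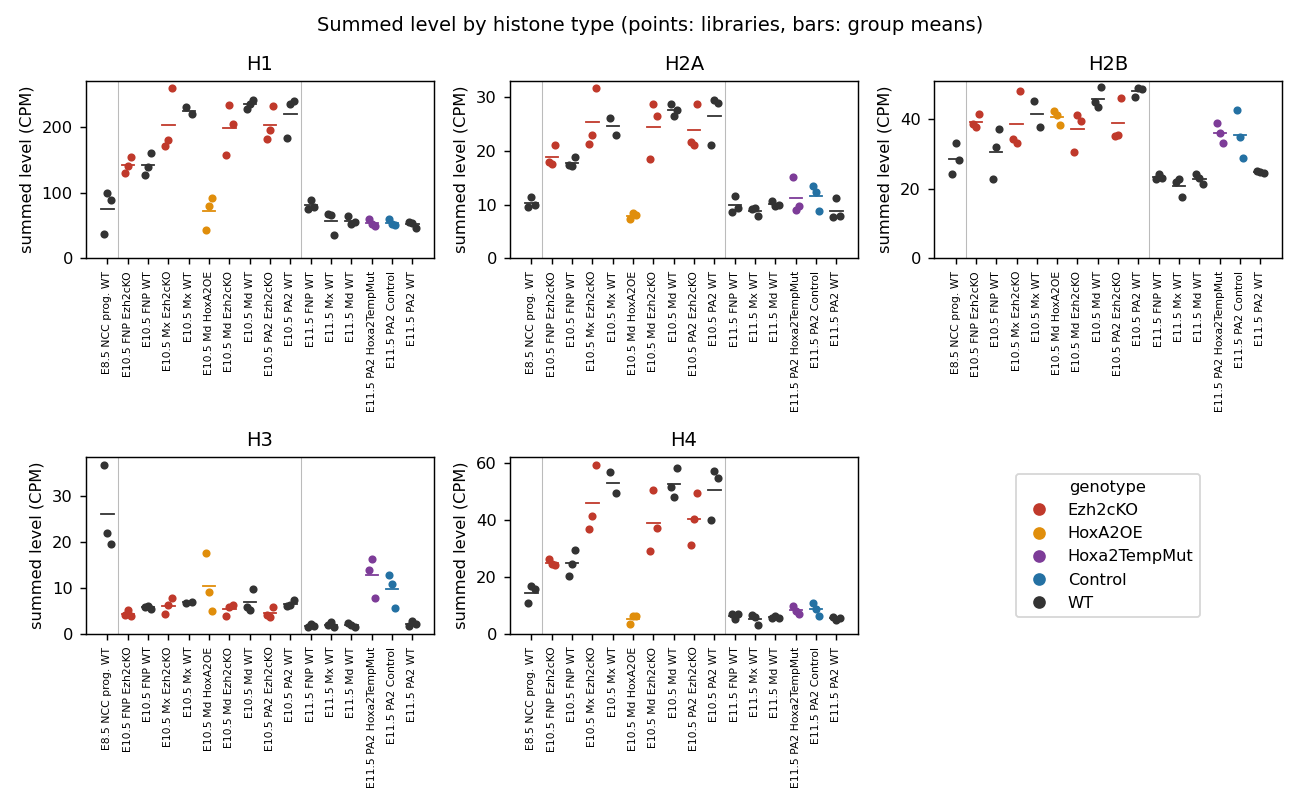
Summed level in CPM (y axes from 0, a scale per panel) of the H1, H2A, H2B, H3 and H4 genes in each library, by group (x axis), where points are libraries, bars group means and colours genotypes. H3 is highest at E8.5 (19.7 to 36.9 CPM, most of it from Hist2h3c1), the other 4 types are highest in E10.5 groups, and E10.5 HoxA2OE is low for H1, H2A and H4 but not for H3.

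At E11.5, 39 of the 45 tested clustered histone genes were lower than at E10.5 in wild-type cells. Sums ran from 65.8 through a median of 101.7 to 132.8 CPM over 12 libraries at E11.5, against 192.8, 358.5 and 386.4 CPM over 11 at E10.5. Every library at E11.5 was below every one at E10.5, and the mean was 0.318 times as high (101.8 ± 17.3 against 320.5 ± 69.5). The log2 ratio was -1.66, or -1.92 without FNP. By subpopulation, E11.5 FNP was at 122.7 ± 9.0 CPM, Mx at 93.0 ± 23.6, Md at 98.2 ± 7.8 and PA2 at 93.1 ± 6.1. The lowest library was Mx replicate 3.

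In the fit, 39 of 45 genes were lower at E11.5 and 3 higher, while 63.8% of all genes were called, 30.1% lower and 33.7% higher. The median log2 fold change was -1.69 over the 45 and 0.03 over all genes. Lower calls covered 5 of 6 H1, 8 of 9 H2A, 11 of 14 H2B, 6 of 7 H3 and 9 of 9 H4 genes. All 42 calls were also made by DESeq2.

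H4 mRNA changed most by sum, at 5.74 ± 1.04 CPM at E11.5 against 44.6 ± 13.9 at E10.5, a ratio of 0.129. Hist2h4 had 0.280, 0.978 and 1.28 CPM at E11.5, against 3.80, 11.3 and 14.8 at E10.5. Its log2 fold change was -3.55 ± 0.19 with no overlap. Hist1h4d had 1.996, 3.58 and 4.92 CPM at E11.5, against 11.3, 32.6 and 39.3 at E10.5 (-2.95 ± 0.15). The H1 sum was 61.6 ± 14.9 against 204 ± 43.2 CPM (ratio 0.303), and its members differed in size of change. Hist1h1b was at 17.2 ± 3.68 CPM at E11.5 and 79.4 ± 17.8 at E10.5 (-2.21 ± 0.14), and Hist1h1d at 2.38 ± 0.719 and 10.9 ± 4.30 (-2.11 ± 0.15). Hist1h1e (-1.57 ± 0.14), Hist1h1a (-1.34 ± 0.12) and Hist1h1c (-1.09 ± 0.12) fell less. The H2A gene Hist1h2al fell to 1.41 ± 0.502 CPM, against 6.52 ± 1.18 at E10.5 (-2.23 ± 0.17), and the H2B genes Hist1h2bb (-1.64 ± 0.14) and Hist1h2be (-1.10 ± 0.12) were also lower. Hist3h2a was at 4.56 ± 1.09 against 6.08 ± 1.84 CPM (-0.36), with overlap.

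H2B changed least by sum. Its mRNA was at 22.9 ± 2.06 CPM at E11.5 and 41.5 ± 8.39 at E10.5, a ratio of 0.553, with overlap. Within it Hist2h2be had 5.64, 10.7 and 11.6 CPM at E11.5, against 4.86, 12.3 and 14.0 at E10.5, and was not called (-0.01 ± 0.10, adjusted p = 0.915). Hist2h2be, Hist1h2bc, Hist1h1c and Hist3h2a form a list of genes for which polyadenylated transcripts have been reported in differentiated cells. Of the 4, 1 was called higher and 2 lower, and their sum was 20.2 ± 2.90 CPM at E11.5 against 26.5 ± 7.15 at E10.5. The higher one was Hist1h2bc, at 1.30 ± 0.316 against 0.692 ± 0.176 CPM (0.91 ± 0.21). The other genes called higher, named after their values were seen, were Hist3h2ba at 1.39 ± 0.889 against 0.495 ± 0.285 CPM (1.44 ± 0.22), an H2B gene on the plus strand of chromosome 11 at 58948911 to 58949532, and Hist1h3c, at 0.313 ± 0.0913 against 0.175 ± 0.0743 CPM (0.94 ± 0.23). All 3 overlapped between stages.

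The fall differed in size among subpopulations for 7 of 45 genes, beside 15.6% of all genes. For each of them FNP had the smallest fall or a rise. Hist1h1d had a log2 fold change of -0.51 in FNP, whereas Mx had -2.72, Md -2.66 and PA2 -2.58. Hist1h4d had -1.64 in FNP and -3.25 to -3.50 in the other three, and Hist1h1a -0.32 in FNP and -1.46 to -1.80 in the others. Hist2h2be had 0.76 in FNP and -0.22 to -0.32 in the others. At E11.5 itself the test among subpopulations called only Hist1h1a and Hist3h2ba of 45, where 29.4% of all genes were called. Hist3h2ba had 0.232 to 1.04 CPM in FNP and 0.420 to 1.02 in Mx, and higher levels in Md (1.87 to 1.95) and PA2 (1.52 to 2.98).

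Short RNAs without a poly(A) tail (snRNA, snoRNA and the like) summed to 176 to 396 CPM at E11.5 and 335 to 488 at E10.5, a ratio of 0.723. Of 482 other coding genes with less than 800 exonic bases, 97 were called higher and 193 lower, with a median log2 fold change of -0.19. Mitochondrial ribosomal RNA took 10.9% to 18.8% of counts at E11.5 and 18.9% to 31.9% at E10.5. Erythroid markers summed to 26.5 to 78.5 CPM at E11.5 and 25.2 to 423 at E10.5, with 6 of 7 tested lower. The part of short RNAs, mitochondrial ribosomal RNA and erythroid cells in the result was not tested.

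**Figure D4:**
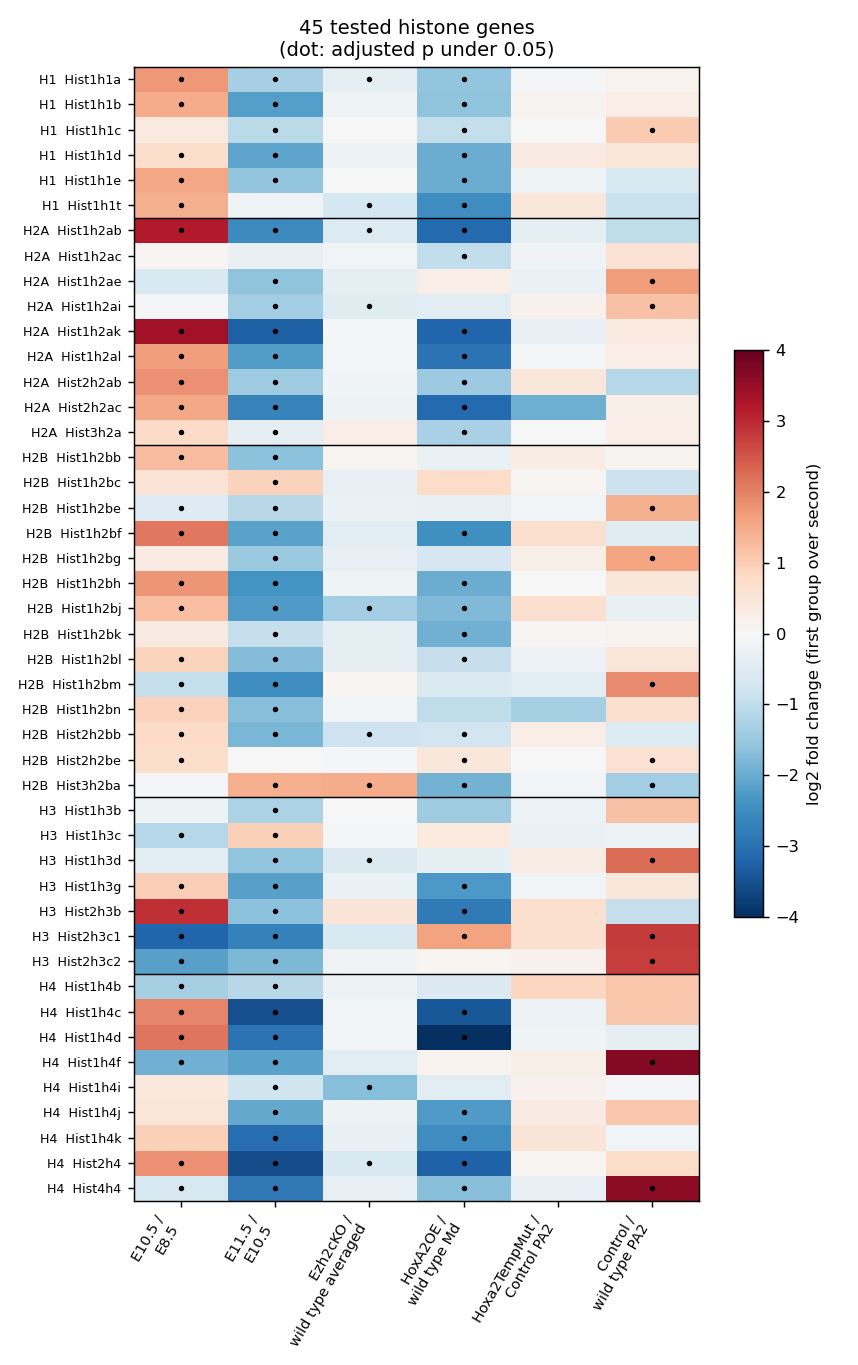
Log2 fold change, first group over second, of the 45 tested clustered histone genes (rows, by type) in 6 comparisons (columns), with red for higher and blue for lower and a dot where the adjusted p is under 0.05. The E11.5 and HoxA2OE columns hold 39 and 28 genes called lower, Ezh2cKO 9, and Hoxa2TempMut none.

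Loss of Ezh2 went with more lower than higher calls among clustered histone genes, and the summed level overlapped that of wild type. Averaged over the 4 subpopulations, the sum was 291 ± 59.6 CPM in Ezh2cKO (12 libraries) and 320.5 ± 69.5 in wild type (11 libraries), a ratio of 0.908 with overlap. By subpopulation, Ezh2cKO libraries of FNP had 217.7, 225.4 and 244.8 CPM, of Mx 267.3, 284.2 and 406.6, of Md 240.1, 359.9 and 315.0, and of PA2 273.9, 296.8 and 361.9. Each set overlapped its wild type in the sum. Mitochondrial ribosomal RNA took a larger share in Ezh2cKO than in wild type, without overlap, in Mx (25.5% against 21.0%), Md (26.5% against 20.6%) and PA2 (27.3% against 21.5%), and overlapped in FNP (29.3% against 28.9%). Erythroid markers summed to 19.5 to 20.5 CPM in Ezh2cKO FNP against 25.2 to 50.9 in wild-type FNP, and overlapped in the other subpopulations. The part of either in the histone values was not tested. The averaged test called 1 gene higher and 9 lower of 45, where 30.8% of all genes were called, 16.1% higher and 14.7% lower. The median log2 fold change was -0.20 over the 45 and -0.02 over all genes.

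The genes called were mostly of low level. Those of at least 5 CPM were Hist2h4, at 7.31 ± 2.72 CPM in Ezh2cKO and 11.001 ± 3.10 in wild type (-0.61 ± 0.16), and Hist1h1a, at 27.0 ± 4.97 and 35.0 ± 8.39 CPM (-0.34 ± 0.12, adjusted p = 0.0232). The call for Hist1h1a was lost in 5 of 23 fits that left out 1 library. With libraries pooled over subpopulations, both genes overlapped between genotypes. For Hist1h1a the log2 ratio of mean CPM was positive for FNP (0.19) and negative elsewhere (Md -0.58, PA2 -0.56, Mx -0.43). The test for an Ezh2cKO effect differing among subpopulations did not call Hist1h1a (adjusted p = 0.759). Hist1h1b and Hist1h1e, the leading linker genes, were not called, at ratios of 0.906 and 1.00. The H4 gene Hist1h4i (chromosome 13, 22040816 to 22041352), named after its values were seen, had the largest fall, at 0.361 ± 0.172 CPM in Ezh2cKO and 1.10 ± 0.266 in wild type (-1.69 ± 0.20). It was lower in each of the 4 subpopulations, with 0.249, 0.145 and 0.253 CPM in Ezh2cKO FNP against 1.38, 0.854 and 0.553 in wild type, and 0.152, 0.343 and 0.290 CPM in Ezh2cKO PA2 against 0.950, 1.05 and 1.23. The gene called higher was Hist3h2ba, at 1.25 ± 0.404 CPM in Ezh2cKO and 0.495 ± 0.285 in wild type (1.47 ± 0.22).

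Within subpopulations, 2 genes were higher and 3 lower in FNP, where 6.80% of all genes were called (4.97% higher and 1.83% lower). In Mx 1 was higher and 2 lower, where 10.3% were called (6.85% and 3.41%). In Md 1 was higher and 4 lower, where 8.87% were called (6.69% and 2.18%). In PA2 none was higher and 2 were lower, where 9.17% were called (6.64% and 2.53%), and the lower 2 were Hist1h4i and Hist1h2bj. The Mx count became 0 without wild-type replicate 1, and 1 without wild-type replicate 2 or Ezh2cKO replicate 1. The Md count became 0 without wild-type replicate 3 or Ezh2cKO replicate 1, 2 without Ezh2cKO replicate 2 or 3, and 3 without wild-type replicate 1. In Md, Hist2h4 was at 2.71, 6.65 and 4.82 CPM in Ezh2cKO against 8.91, 11.3 and 14.8 in wild type (-1.29 ± 0.32), and its adjusted p was 0.0614 without wild-type replicate 3 and 0.0888 without Ezh2cKO replicate 1. In FNP, Hist1h2bb was at 20.2, 19.1 and 24.9 CPM in Ezh2cKO against 3.60, 10.3 and 15.8 in wild type (1.10 ± 0.25, adjusted p = 0.00312). Fitted on those 6 libraries alone its adjusted p was 0.131. It was also the 1 gene whose Ezh2cKO effect differed among subpopulations (adjusted p = 0.0281), beside 1.63% of all genes, with log2 fold changes near 0 or below in Mx (-0.02), Md (-0.35) and PA2 (-0.43). That call was lost when FNP wild-type replicate 1 or 2, FNP Ezh2cKO replicate 1 or 3, or PA2 Ezh2cKO replicate 1 or 2 was left out, and in the fit of only the groups compared, which called 1 other gene.

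Md cells overexpressing Hoxa2 had lower levels of 28 of the 45 tested clustered histone genes. The sum was 114.3, 145.0 and 149.7 CPM in HoxA2OE, against 359.4, 358.5 and 386.4 CPM in wild-type Md of the same stage. No libraries overlapped, and the mean was 0.370 times as high (136 ± 19.2 against 368 ± 15.9). Scaled by raw library totals the log2 ratio was -2.01 in place of -1.43, and without the 3 genes of highest level it was -1.11. The HoxA2OE sums lay nearer to those of wild-type Md at E11.5 (93.6 to 107.2 CPM) than to those at E10.5.

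The types differed. H4 was at 5.31 ± 1.63 CPM in HoxA2OE and 52.7 ± 5.09 in wild type, a ratio of 0.101. H2A was at 7.96 ± 0.550 and 27.7 ± 1.06 CPM (ratio 0.288), and H1 at 71.9 ± 25.2 and 235 ± 6.54 CPM (ratio 0.306). H2B differed less, at 40.6 ± 2.06 and 45.9 ± 3.08 CPM (ratio 0.885), without overlap. H3 was at 17.6, 9.1 and 4.9 CPM in HoxA2OE, with a mean of 10.54 ± 6.44 CPM against 6.94 ± 2.47 in wild type, and overlapped. HoxA2OE replicate 1 combined the highest H3 with the lowest H1 sum (43.7 CPM against 80.1 and 92.0). Within H3, the gene Hist2h3c1 was at 7.61 ± 7.12 CPM in HoxA2OE and 2.50 ± 1.15 in wild type.

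Of 45 genes, 28 were called lower and 2 higher, where 54.8% of all genes were called, 27.8% lower and 27.1% higher. The median log2 fold change was -1.47 over the 45 and -0.07 over all genes. Lower calls covered 6 of 6 H1, 7 of 9 H2A, 7 of 14 H2B, 2 of 7 H3 and 6 of 9 H4 genes. Without HoxA2OE replicate 1, 25 were lower and none was higher.

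Hist1h4d had 0.661, 2.24 and 3.02 CPM in HoxA2OE, against 36.5, 31.4 and 36.0 in wild type, with a log2 fold change of -4.06 ± 0.31 (adjusted p = 3.42e-13). Hist2h4 had 0.785, 1.39 and 1.42 CPM in HoxA2OE, against 8.91, 11.3 and 14.8 (-3.24 ± 0.36). Hist1h2al had 0.661, 0.905 and 1.26 CPM, against 8.49, 8.34 and 5.52 in wild type (-2.95 ± 0.34). These 3 genes, in H4 and H2A, were lower in every HoxA2OE library by a wide margin, though Hist1h2al shared 67.6% of its windows with other genes. Hist1h1e had 10.496, 20.8 and 27.6 CPM in HoxA2OE, against 80.3, 76.5 and 80.1 in wild type (-1.99 ± 0.28), and Hist1h1d was at 3.63 ± 1.36 against 14.2 ± 0.704 CPM (-1.99 ± 0.28). Hist1h1b was at 28.6 ± 14.0 against 87.7 ± 3.68 CPM (-1.61 ± 0.27) and Hist3h2a at 2.97 ± 0.663 against 7.29 ± 1.89 (-1.30 ± 0.26). In contrast Hist1h2bb was at 8.84, 10.1 and 11.9 CPM in HoxA2OE and 10.3, 13.2 and 13.6 in wild type and was not called (-0.26 ± 0.26). The genes called higher were Hist2h2be, with 19.4, 16.4 and 13.4 CPM in HoxA2OE against 13.3, 12.3 and 10.45 in wild type (0.44 ± 0.19, adjusted p = 0.0403), and Hist2h3c1, with 15.7, 5.04 and 2.13 CPM against 1.95, 1.73 and 3.82 (1.60 ± 0.47). Hist2h3c1 rested on replicate 1, without which its log2 fold change was 0.52 with an adjusted p of 0.344. The call of Hist2h2be was lost with protein-coding totals (adjusted p = 0.0688) and in the fit of these 6 libraries alone (adjusted p = 0.110).

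All HoxA2OE libraries had lower scaling factors (0.514, 0.775 and 0.765) than libraries of any other group, where wild-type Md had 1.04, 1.08 and 1.00. Their totals were also larger, at 47061444, 45626768 and 49808808 counts against 22603841, 22466148 and 18820510 in wild-type Md. Replicate 1 of HoxA2OE had the lowest factor and 40.2% of its counts on mitochondrial ribosomal RNA. The other HoxA2OE libraries had 25.9% and 26.1%, and wild-type Md 18.9% to 22.7%. Coding genes with less than 800 exonic bases, histones left out, summed to 19653, 7894 and 8839 CPM in HoxA2OE and 6955 to 8285 in wild type, with 87 of 482 called higher and 126 lower. Short RNAs without a tail summed to 379 to 435 CPM in HoxA2OE and 388 to 488 in wild type. Erythroid markers were at 10.47 to 13.5 CPM in HoxA2OE against 219 to 284 in wild type, with 6 of 7 tested lower and Hba-a1 at 0 in both. Their part in the histone result was not tested.

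In PA2 at E11.5 the temporal Hoxa2 mutant gave no histone call against its Control. Sums were 138.3, 121.4 and 107.5 CPM in Hoxa2TempMut and 139.8, 119.0 and 99.9 in Control, a ratio of 1.02. No histone gene was called by edgeR or DESeq2, 1 (Hist1h2bn) had an unadjusted p under 0.05, and 0.623% of all genes were called, 0.258% higher and 0.365% lower. Hist1h1b was at 17.8, 17.3 and 20.2 CPM in Hoxa2TempMut and 18.1, 14.7 and 19.1 in Control. Hist1h4d was at 2.49, 1.93 and 2.65 CPM in Hoxa2TempMut and 2.44, 2.41 and 3.10 CPM in Control, so the libraries of both groups overlapped for either gene.

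Control did differ from the E11.5 wild type of the same arch. Its sum was 119.6 ± 19.9 CPM against 93.1 ± 6.10 in wild type, a ratio of 1.28 with no overlap, and the log2 ratio was 0.36, or 0.68 without the 3 genes of highest level. The types diverged, with H1 at 54.2 ± 5.26 CPM in Control and 51.7 ± 5.00 in wild type (overlap), H3 at 9.75 ± 3.71 and 2.23 ± 0.597 CPM (ratio 4.38), H4 at 8.63 ± 2.29 and 5.50 ± 0.452 (1.57), and H2B at 35.4 ± 6.83 and 24.7 ± 0.291 (1.43). Of 45 genes 12 were higher and 1 (Hist3h2ba) lower, where 22.1% of all genes were called. Hist1h2be had 12.3, 9.18 and 5.81 CPM in Control, against 3.67, 3.73 and 2.73 in wild type (1.43 ± 0.23). Hist1h1c had 10.4, 8.42 and 5.59 CPM, against 3.76, 4.18 and 3.79 (1.06 ± 0.24), and Hist2h2be 20.2, 14.9 and 14.5 CPM, against 10.8, 11 and 10.6 (0.62 ± 0.18; adjusted p = 0.120 without Control replicate 1). Among genes of lower level, chosen after their values were seen, Hist2h3c1 had 5.67, 3.74 and 2.16 CPM in Control, against 0.435, 0.515 and 0.707 in wild type (2.80 ± 0.56), and Hist4h4 3.86, 3.03 and 1.05 CPM, against 0.280, 0.273 and 0.0964 (3.58 ± 0.49). Every Control library was above every wild-type one for these 5 genes. Short RNAs without a tail summed to 472 to 479 CPM in Control and 326 to 389 in wild type, and of 482 other short coding genes 18 were higher and 175 lower. Mitochondrial ribosomal RNA took 18.49% to 18.77% of counts in Control and 14.8% to 17.3% in wild type, without overlap. The erythroid markers summed to 21.1 to 32.1 CPM in Control and 27.7 to 43.9 in wild type, with 1 called lower. Within them Hbb-y was at 0.80 CPM in Control and 6.35 in wild type, Hba-x at 2.63 and 6.05, and Hba-a1 at 0 in both. Their part in the result was not tested. Hoxa2TempMut and wild type were each set against the same Control libraries.

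Genes of DNA replication, mitosis and histone handling were counted in the same fit. Their counts are read against the shares of all genes called, which were 32.1% higher and 36.3% lower at E10.5, 33.7% higher and 30.1% lower at E11.5, 16.1% and 14.7% in Ezh2cKO, and 27.1% and 27.8% in HoxA2OE. At E11.5 against E10.5, 20 of 30 DNA replication genes were lower and 1 higher, with a median log2 fold change of -0.37, among them the ligase Lig1 at 104 ± 8.96 against 190 ± 11.9 CPM. Of 18 mitosis genes 13 were lower and none higher (median -0.21), and of 16 histone chaperone genes 12 were lower and 1 higher (median -0.28), among them the H1 and H3-H4 chaperone Nasp at 863 ± 62.1 against 1380 ± 130 CPM. Of 11 replacement histones 4 were higher and 4 lower. H3f3b was at 350 ± 37.4 CPM at E11.5 against 225 ± 12.9 at E10.5, and H2afz at 323 ± 68.4 against 508 ± 89.4. In HoxA2OE, 11 of 18 mitosis genes were higher and 1 lower (median 0.61), among them Top2a at 2016 ± 261 against 1092 ± 55.5 CPM. Replication genes went both ways, with 12 higher and 9 lower of 30, and Pcna was at 414 ± 153 against 154 ± 8.94 CPM. Of 18 genes of histone transcription and mRNA processing 9 were higher and 4 lower in HoxA2OE, with Slbp at 139 ± 30.0 CPM against 83.3 ± 5.58 in wild type and Casp8ap2 at 638 ± 109 against 351 ± 16.5. At E11.5 none of these 18 was higher and 6 were lower.

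At E10.5 against E8.5, 7 of 30 replication genes were higher and 13 lower, and 1 of 18 mitosis genes was higher and 13 were lower. In Ezh2cKO, 16 of 30 replication genes were lower and none higher (median -0.16), among them the helicase subunit Mcm6 at 144 ± 14.1 against 194 ± 12.2 CPM. Of 9 cell-cycle inhibitors 6 were higher and none lower in Ezh2cKO, among them Cdkn2c at 8.20 ± 0.915 against 0.840 ± 0.201 CPM. No gene of these 6 lists was called in Hoxa2TempMut against Control.

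**Figure D5:**
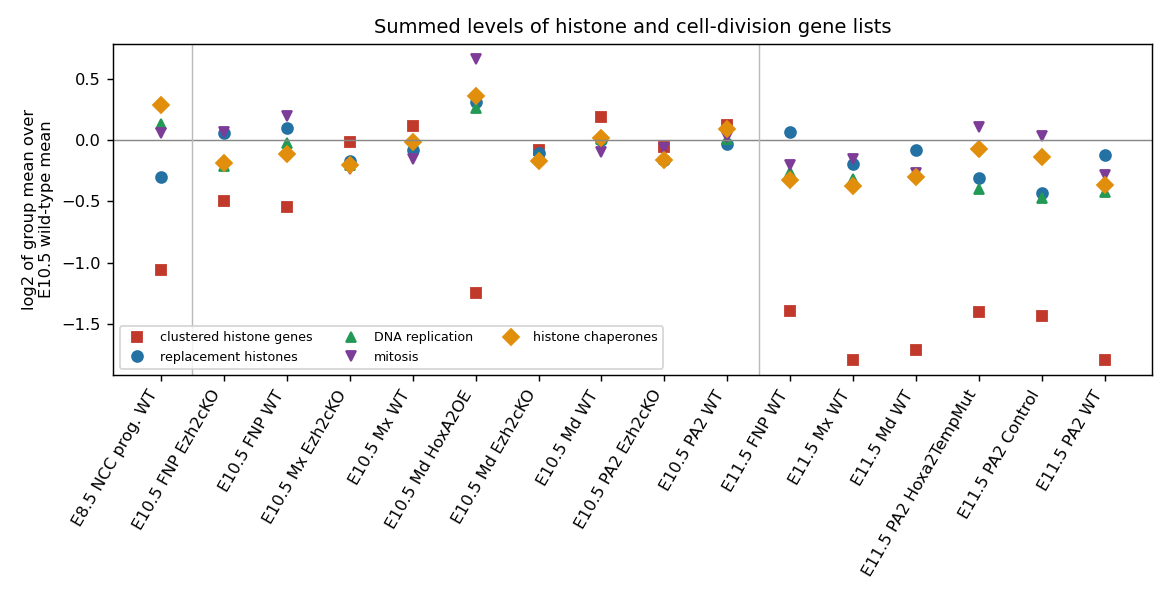
Log2 of each group's mean summed level over the mean of the 4 wild-type E10.5 group means (y axis) for clustered histone genes, replacement histones, DNA replication, mitosis and histone chaperone genes in the 16 groups (x axis). Clustered histones lie more than 1 log2 unit below the line at E8.5, in HoxA2OE and in all E11.5 groups, while the other 4 lists stay within 1 log2 unit of it in every group.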

How the data were processed

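Counts per gene were deposited by the authors as 1 table of 47 libraries, raw and not normalized. Per the labels' protocols, total RNA was made into unstranded ScriptSeq v2 libraries and read as single 50-base reads. The submitters' processing notes name bcl2fastq 2.17 and GRCm38. Aligner, counter and annotation were not given in the sources used here. Among the columns, 22 names recur with identical values, and each was used once. Libraries were grouped by their labels. Genes passing filterByExpr (minimum count 10, minimum total 15; 20560 genes) were tested with edgeR 4.0.16 in R 4.3.3, by quasi-likelihood F tests in 1 fit of all 16 groups (TMM scaling, 31 residual degrees of freedom), with Benjamini-Hochberg adjustment over all genes and calls at 0.05. The fit was checked on simulated counts. CPM are counts over TMM-scaled totals. Summed levels were given no p-value. Alternatives were DESeq2 1.42.0, other scalings and filters, a replicate block and each library left out. Named genes were, per comparison and histone type, up to 2 called genes per direction of largest change whose higher group reached 5 CPM, the 6 of highest level, the 5 somatic linker genes, testis-type genes, and others outside Hist1 with at least 5 CPM, with exceptions said in the text. Members and lists were chosen with earlier results of these data known. The labels do not say that a replicate number marks a shared litter or day, and libraries were treated as unpaired. Correlations of deviations between same-numbered libraries were -0.253 to 0.290. For Hoxa2TempMut against Control 2 of 3 pairs exceeded 0.1, for E10.5 against E8.5 5 of 11, and for E11.5 against E10.5 5 of 44. Whether same-numbered libraries are paired was not settled.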

Additional observations from a re-analysis of the deposited data

Results flagged for a closer look

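The change between E11.5 and E10.5 differed among the 4 wild-type subpopulations for 7 of 45 tested histone genes, by edgeR's interaction test with adjustment over all genes. The same test called 15.6% of all genes, so histone genes were called about as often as genes at large. The adjusted p was 7.38e-05 for Hist1h1d, 0.000158 for Hist1h2ak, 0.00135 for Hist1h4d and 0.00193 for Hist1h1a. It was 0.0058 for Hist2h2be, 0.0291 for Hist1h1b and 0.048 for Hist1h1c. Hist1h2ak, an H2A gene, had log2 fold changes of -1.49 in FNP and -3.52 to -4.10 elsewhere, Hist1h1b -1.29 in FNP and -2.46 to -2.63 elsewhere, and Hist1h1c -0.33 in FNP and -1.28 to -1.47 elsewhere. The Ezh2cKO effect on Hist1h2bb differed among subpopulations with an adjusted p of 0.0281, at a log2 fold change of 1.11 in FNP. It was not called in the fit of only the groups compared, which called 1 other gene.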

How the results depend on the processing

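No called gene that the text names changed direction under any alternative run. Of the summed levels, 2 log2 ratios near 0 crossed it when 1 library was left out, at -0.0378 to 0.156 for Ezh2cKO in FNP and -0.0808 to 0.160 for Hoxa2TempMut against Control, and the second was also below 0 with raw library totals (-0.0399). The E11.5 subpopulation test called 2 genes, and 1 with nuclear protein-coding totals, 5 with no filter on low counts and 4 with only the groups compared. Ezh2cKO in PA2 gave 2, and 4 with no filter and 6 with only the groups compared, and Ezh2cKO in FNP gave 5, and 3 with only the groups compared. Without the 3 members of highest level the log2 ratio of the summed levels was 0.57 for E10.5 against E8.5, -1.11 for HoxA2OE and 0.68 for Control. It was -2.01 for HoxA2OE with raw library totals, and -1.92 for E11.5 against E10.5 without FNP, a setting chosen after seeing the data. Leaving out 1 library at a time gave 7 to 12 calls among E10.5 subpopulations, 1 to 3 at E11.5, 0 to 3 for Ezh2cKO in Mx, 0 to 4 in Md and 0 to 1 for the Ezh2cKO interaction. The E11.5 count was 1 without FNP replicate 2 or 3, Md replicate 2 or 3, or PA2 replicate 1 or 3. With the replicate number as a block, counts were 32 for E10.5 against E8.5, 42 for E11.5 against E10.5, 10 for Ezh2cKO, 30 for HoxA2OE and 13 for Control, and 4 for Ezh2cKO in Mx, all within 1.5 times the counts reported. Calls of low genes and of near copies are limited by 1879 to 13739 histone counts per library.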
